A study of Homo sapiens with 6 samples.

Results

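The mRNAs of 10 genes that build the intermediate filaments of neurons and their progenitors, or that act at growing neurites, were followed in differentiating neuroblastoma cells depleted of the long noncoding RNA CyCoNP. The genes were chosen by name and by known role, with earlier results of these data known. They were NEFL, NEFM, NEFH, INA, PRPH, VIM and NES, which encode intermediate filament proteins, and GAP43, STMN2 and STMN4, which encode proteins of the growth cone. All 10 were among the 60676 genes listed in the deposited tables, and all 10 passed the filter on low values that left 13966 genes for testing. RNA came from SK-N-BE, an established human neuroblastoma line, in which neuronal differentiation had been induced for 1.5 days with 10 μM retinoic acid, in both groups alike. Cells of the si-SCR group carried a scrambled small interfering RNA (siRNA) and cells of the si-CyCoNP group carried a pool of siRNAs against CyCoNP, with 3 libraries each. The model is a single tumour line treated with a single siRNA pool. The labels do not say whether replicates were separate cultures, so p-values weigh group differences only against the variation between these libraries. In such bulk RNA, fewer cells of a kind and less RNA per cell cannot be told apart.

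Intermediate filaments are rope-like polymers that fill axons and set their calibre. In mature neurons the neurofilament triplet of light (NEFL), medium (NEFM) and heavy (NEFH) subunits co-polymerises with alpha-internexin (INA) or, in peripheral neurons, with peripherin (PRPH). Neural progenitors instead carry vimentin (VIM) and nestin (NES), and differentiating neurons exchange these for the neuronal subunits. At the tips of growing neurites, GAP43 is a membrane-attached regulator of actin, while the stathmins STMN2 and STMN4 bind tubulin dimers and regulate the turnover of microtubules.

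The targeted transcript was examined first. LINC02381, the gene of CyCoNP, had 274, 208 and 315 counts under si-SCR, against 20, 30 and 12 under si-CyCoNP. Its fitted log2 change was -3.78 (SE 0.190, edgeR quasi-likelihood adjusted p = 6.84e-14), so that 7.30% of its normalised level remained. NCAM1, the neural adhesion molecule on which the study centred, dropped to 24.2 ± 1.47 FPKM from 49.7 ± 9.14 (SD, n = 3), by a fitted log2 change of -1.11 (edgeR quasi-likelihood adjusted p = 5.31e-09). FPKM are counted fragments scaled by gene length and by the total of the library. Total counts ranged from 3762009 to 4799407 per library, and the 10 genes together took between 0.219% and 0.241% of them.

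CyCoNP depletion moved the filament genes in opposite directions. NEFM, NEFH and NES rose, whereas NEFL, INA, PRPH, VIM, STMN2 and STMN4 fell, and GAP43 did not pass the test. Thus 3 of 10 passed as higher and 6 of 10 as lower at an adjusted p under 0.05, beside 14.2% of all tested genes in the higher direction and 14.2% in the lower. With the further demand of a log2 fold change above 1 or below -1 (genes called, hereafter), NEFH and NES were called higher and PRPH and STMN4 lower, beside 2.28% of all tested genes called higher and 2.98% called lower. The FPKM ranges of the groups did not overlap for 9 of 10, beside 40.3% of all tested genes. The median log2 fold change was -0.40 over the 10 genes and 0.01 over all tested genes. The median size of the change, without its sign, was 0.86 and 0.31, respectively.

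**Figure D1:**
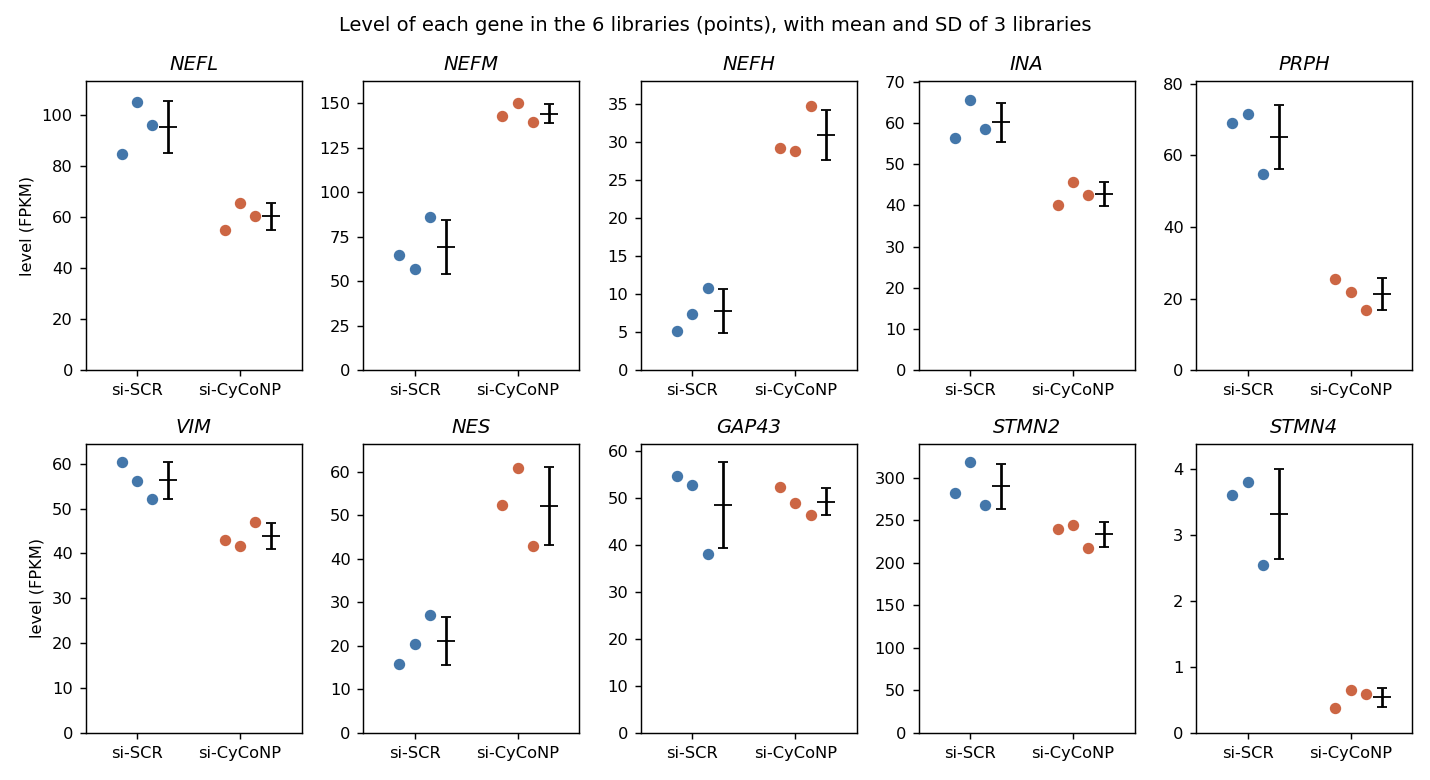
Level of each of the 10 genes in FPKM (vertical axes, each from 0), with a point for each of the 3 si-SCR and 3 si-CyCoNP libraries and a black bar for the mean and SD. The groups are separated in every panel except GAP43, with NEFM, NEFH and NES higher in si-CyCoNP and the others lower.

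**Figure D2:**
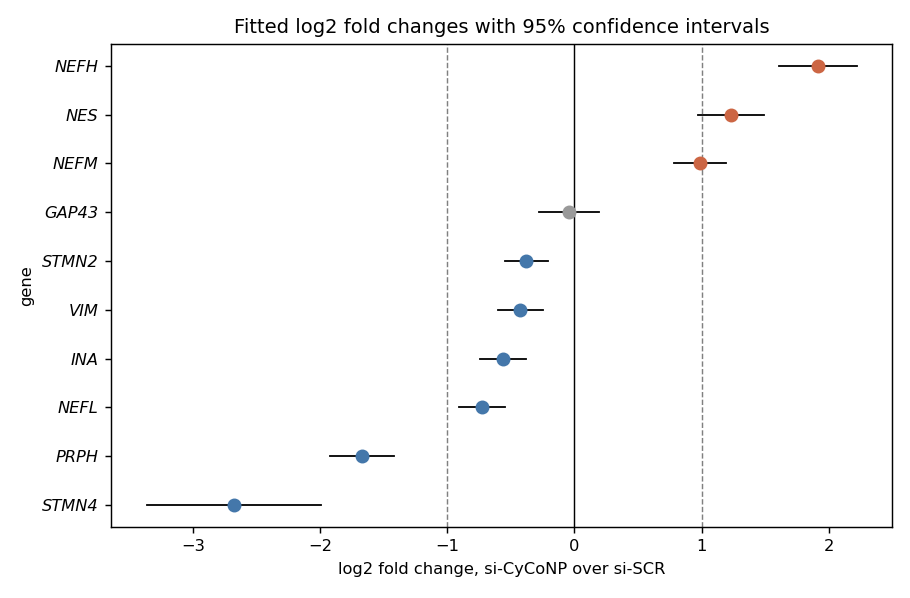
Fitted log2 fold changes of si-CyCoNP over si-SCR (horizontal axis) with their 95% confidence intervals as lines, genes ordered by value. Dashed lines mark -1 and 1, orange points passed as higher, blue points as lower, and the grey point (GAP43) did not pass. Values run from -2.68 for STMN4 to 1.91 for NEFH.

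The 3 subunits of the neurofilament triplet did not move together. NEFL, the core subunit that can assemble on its own, lies on the minus strand of chromosome 8 from 24950955 to 24956721 (GRCh38). It was at 84.7, 105 and 96.0 FPKM in si-SCR, against 54.8, 65.6 and 60.5 FPKM after depletion. Every depleted library thus lay below every control library. The log2 fold change of NEFL was -0.73 (SE 0.0879, 95% confidence interval -0.91 to -0.55, edgeR quasi-likelihood adjusted p = 3.19e-07).

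NEFM, whose long tail domain projects from the filament, is the neighbour of NEFL on chromosome 8, from 24913758 to 24919098 on the plus strand. The 2 genes face each other at a distance of 31857 bases. NEFM was at 64.9, 56.8 and 86.2 FPKM in si-SCR, against 143, 150 and 139 FPKM after depletion. All 3 depleted libraries stood above the controls and close to each other, while the third control was the highest of its group. The fitted log2 change was 0.99 (SE 0.0988, 95% confidence interval 0.78 to 1.19, edgeR quasi-likelihood adjusted p = 1.51e-08), just under the fold threshold for a call. With the third si-SCR library left out it was 1.15, which made it a called gene.

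NEFH, the heavy subunit that marks mature large-calibre axons, was the least abundant of the triplet in both groups. It lies on chromosome 22 from 29480218 to 29491390 on the plus strand. Its counts were 84, 105 and 196 in the controls, against 531, 465 and 546 after depletion, which corresponded to 5.15, 7.35 and 10.8 FPKM and to 29.2, 28.8 and 34.7 FPKM. The lowest depleted library was above the highest control by a wide margin. NEFH rose 3.77-fold, a fitted log2 change of 1.91 (SE 0.150, 95% confidence interval 1.61 to 2.22, edgeR quasi-likelihood adjusted p = 2.05e-10). The nearest tested genes on either side of the 10 were also read, leaving out NEFL and NEFM as neighbours of each other. Of these 18 genes, 8 passed the test, beside 14.2% of all tested genes in each direction. Beside NEFH, RFPL1S, 1350 bases away, had a fitted log2 change of 1.61 (edgeR adjusted p = 6.93e-05), and THOC5, 14489 bases away on the other side, of 0.54 (edgeR adjusted p = 2.88e-05). HEY1, 96213 bases from STMN2, went the opposite way to it, at 0.85 (edgeR adjusted p = 6.44e-08).

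The other subunits found in neurons both fell. INA, alpha-internexin, is expressed earlier in neuronal development than the triplet and lies on chromosome 10 from 103277138 to 103290346. It was at 56.4, 65.6 and 58.6 FPKM in si-SCR, against 40.1, 45.7 and 42.5 FPKM after depletion, with no overlap. Its fitted log2 change was -0.56 (SE 0.0884, 95% confidence interval -0.74 to -0.38, edgeR quasi-likelihood adjusted p = 1.79e-05).

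PRPH, peripherin, is typical of peripheral and sympathetic neurons, the lineage from which neuroblastoma arises. It lies on chromosome 12 from 49295147 to 49298686. PRPH was at 69.0, 71.4 and 54.9 FPKM in si-SCR, against 25.5, 21.9 and 16.7 FPKM after depletion. The highest depleted library was under every control. It fell to 31.4% of the control level, with a fitted log2 change of -1.67 (SE 0.122, 95% confidence interval -1.92 to -1.42, edgeR quasi-likelihood adjusted p = 6.16e-11). PRPH and INA were thus unequal in their decrease, as the intervals did not meet.

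Both progenitor filament genes passed the test, in opposite directions. VIM, vimentin, lies on chromosome 10 from 17228241 to 17237593. It was at 60.4, 56.2 and 52.2 FPKM in si-SCR, against 43.1, 41.6 and 47.1 FPKM after depletion. The groups did not overlap, and the log2 fold change of VIM was -0.43 (SE 0.0865, edgeR quasi-likelihood adjusted p = 0.000413).

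NES, nestin, is a large filament protein of dividing neural progenitors that needs a partner such as vimentin to polymerise. It lies on the minus strand of chromosome 1 from 156668763 to 156677407. NES had 380, 428 and 720 counts in the controls, against 1398, 1441 and 992 after depletion. The corresponding levels were 15.9, 20.4 and 27.0 FPKM and 52.3, 60.9 and 43.0 FPKM. The control library with the most NES was the third, and the depleted library with the least was also the third, yet a gap remained between them. The fitted log2 change was 1.23 (SE 0.125, 95% confidence interval 0.98 to 1.49, edgeR quasi-likelihood adjusted p = 1.93e-08). The interval reached below 1, and in a test against that fold (glmTreat of edgeR) NES did not pass, while NEFH, PRPH and STMN4 did. BCAN-AS2, the nearest tested gene downstream at 7339 bases, had a fitted log2 change of 1.26 (edgeR adjusted p = 3.22e-06).

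Among the 3 growth cone genes the responses ranged from none detected to the steepest fall of the group. GAP43, on chromosome 3 from 115623510 to 115721490, was at 54.7, 52.9 and 38.1 FPKM in si-SCR, against 52.3, 48.9 and 46.5 FPKM after depletion. The depleted libraries lay inside the range of the controls. Its fitted log2 change was -0.04 (95% confidence interval -0.28 to 0.19, edgeR quasi-likelihood adjusted p = 0.819), and its sign turned with the scaling, to 0.03 with library totals alone. A change of 1.5-fold in either direction, 0.58 on the log2 scale, lies outside this interval.

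STMN2, a neuron-specific stathmin needed for axon growth and repair, was the most abundant of the 10 genes. It lies on chromosome 8 from 79611117 to 79666158. Its levels were 282, 319 and 268 FPKM in si-SCR and 240, 244 and 217 FPKM in si-CyCoNP. The groups were separate but near each other. The fitted log2 change was -0.38 (SE 0.0821, edgeR quasi-likelihood adjusted p = 0.000859).

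STMN4, a stathmin of the nervous system on the minus strand of chromosome 8 from 27235308 to 27258420, was the least abundant. It had 51, 47 and 40 counts in the controls, against 6, 9 and 8 after depletion, or 3.60, 3.79 and 2.54 FPKM and 0.380, 0.643 and 0.586 FPKM. All depleted libraries were far below the controls, at counts where counting error is large. The fitted log2 change was -2.68 (SE 0.333, 95% confidence interval -3.37 to -2.0, edgeR quasi-likelihood adjusted p = 5.08e-07). On the log2(FPKM + 1) scale, which compresses such low values, it was -1.48.

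The remaining stathmins gave 2 more readings of this family. STMN1, expressed in dividing cells, was at 50.7 ± 3.57 FPKM in the controls, against 39.1 ± 0.805 after depletion (SD, n = 3), a fitted log2 change of -0.44 (edgeR quasi-likelihood adjusted p = 9.59e-05). STMN3 was at 70.4 ± 3.47 and 68.7 ± 4.74 FPKM (SD, n = 3), with a fitted log2 change of -0.10 (95% confidence interval -0.27 to 0.07, edgeR quasi-likelihood adjusted p = 0.393).

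The third si-SCR library stood apart from the other controls. The first principal component of log2 CPM separated the groups. CPM here are counts relative to the total of their library after TMM scaling, a correction for library composition. Along this component the third si-SCR library lay at -20.9, nearer to the si-CyCoNP libraries (29.2 to 32.2) than the other controls did, at -34.8 and -35.5. It was also the control nearest to the si-CyCoNP mean for 8 of the 9 genes that passed, beside 52.1% of all 3972 genes that passed. Without it the same 3 genes were higher and the same 6 lower, and the log2 fold change was 2.23 for NEFH, 1.44 for NES, -1.80 for PRPH and -2.87 for STMN4.

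The order of the genes by level changed between the groups. In si-SCR the mean levels were STMN2 at 290 FPKM, NEFL at 95.2, NEFM at 69.3, PRPH at 65.1, INA at 60.2, VIM at 56.3, GAP43 at 48.5, NES at 21.1, NEFH at 7.77 and STMN4 at 3.31 FPKM. The library ranges of neighbours in this order overlapped from NEFL through GAP43 and were separate elsewhere. In si-CyCoNP the order by mean was STMN2, NEFM, NEFL, NES, GAP43, VIM, INA, NEFH, PRPH and STMN4, with overlapping neighbours from NEFL through INA. NEFM thus passed NEFL, and NES moved up to the middle of the order. The order between genes rests on the gene lengths behind FPKM. With the length of the main annotated transcript, VIM followed STMN2 in si-SCR, at 135 FPKM, and PRPH and NEFL came next, both at 115 FPKM. In si-CyCoNP PRPH then stayed above NEFH, at 37.8 against 30.9 FPKM. NEFM passed NEFL on either length.

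To describe the makeup of filament mRNA, each gene was expressed as a share of the summed FPKM of the 7 filament genes in its library. NEFM took 18.5% ± 3.76 of this sum in the controls, against 36.4% ± 0.328 after depletion (SD, n = 3). NEFH went from 2.06% ± 0.687 to 7.84% ± 1.08 and NES from 5.60% ± 1.30 to 13.1% ± 1.78. These gains faced losses in the 4 other genes. NEFL went from 25.4% ± 1.89 to 15.2% ± 0.951, PRPH from 17.4% ± 2.78 to 5.41% ± 1.13, INA from 16.1% ± 0.987 to 10.8% ± 0.417 and VIM from 15.1% ± 1.74 to 11.1% ± 1.12. None of the 7 shares overlapped between the groups. By two-sided exact permutation each had p = 0.1, which no comparison of 3 libraries with 3 can undercut, and p = 0.1 when adjusted over all 13 shares and ratios. Shares depend on the gene length behind FPKM. With the length of the main annotated transcript VIM was the first gene of si-SCR at 25.5% ± 2.24 and PRPH stood at 21.7% ± 2.93, while every share kept the direction of its change.

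**Figure D3:**
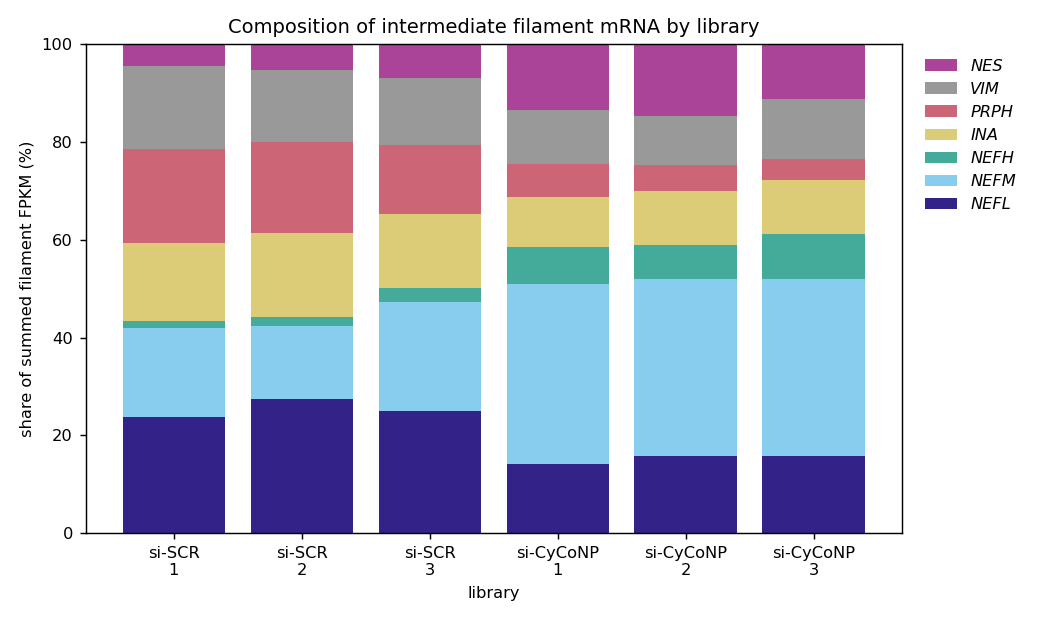
Share of each of the 7 filament genes in their summed FPKM (vertical axis, percent) in each of the 6 libraries (bars). NEFM, NEFH and NES take larger parts of the bar in the 3 si-CyCoNP libraries, and NEFL, INA, PRPH and VIM smaller ones.

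The sum over the 5 neuronal filament genes moved far less than its parts. It was 280, 306 and 306 FPKM in the controls, against 292, 312 and 294 FPKM after depletion, with overlapping groups. The means differed by 1.65 FPKM (exact permutation test, two-sided, p = 1). With TMM scaling, which also corrects for library composition, the sums were 307 ± 12.4 and 295 ± 8.76 CPM per kilobase (SD, n = 3; exact permutation p = 0.2, two-sided), so the sign of this small difference depended on the scaling. With main transcript lengths the sums were 375 ± 15.9 and 344 ± 13.0 FPKM (SD, n = 3), again overlapping (exact permutation p = 0.2, two-sided). The sum of VIM and NES was 77.4 ± 1.63 FPKM in the controls, against 96.0 ± 6.21 after depletion (SD, n = 3), without overlap (two-sided exact permutation p = 0.1). With main transcript lengths, under which VIM weighs more, this separation was lost, at 156 ± 4.33 and 158 ± 2.75 FPKM (SD, n = 3, two-sided exact permutation p = 0.6). These sums were formed after the values of the single genes had been seen.

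Ratios of 2 genes within a library do not depend on the scaling between libraries. The level of a ratio depends on the gene lengths used, whereas its change between the groups does not. The log2 ratio of NEFM to NEFL was -0.38, -0.89 and -0.16 in the controls, against 1.38, 1.19 and 1.21 after depletion. NEFL exceeded NEFM in every control library and NEFM exceeded NEFL in every depleted one, with a mean change of 1.73. The log2 ratio of NEFH to NEFL changed by 2.71, from -3.68 ± 0.464 to -0.97 ± 0.198 (SD, n = 3), and that of NEFH to NEFM by 0.98. The log2 ratio of PRPH to INA changed by -1.13, from 0.11 ± 0.193 to -1.02 ± 0.352 (SD, n = 3), or from 0.93 to -0.20 with main transcript lengths. The log2 ratio of VIM to NES was 1.93, 1.46 and 0.95 in the controls, against -0.28, -0.55 and 0.13 after depletion, a mean change of -1.68. With main transcript lengths the means were 2.71 and 1.03, so that VIM stayed above NES in both groups. That of GAP43 to STMN2 changed by 0.35. None of the 6 ratios overlapped between the groups (two-sided exact permutation p = 0.1, also when adjusted).

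**Figure D4:**
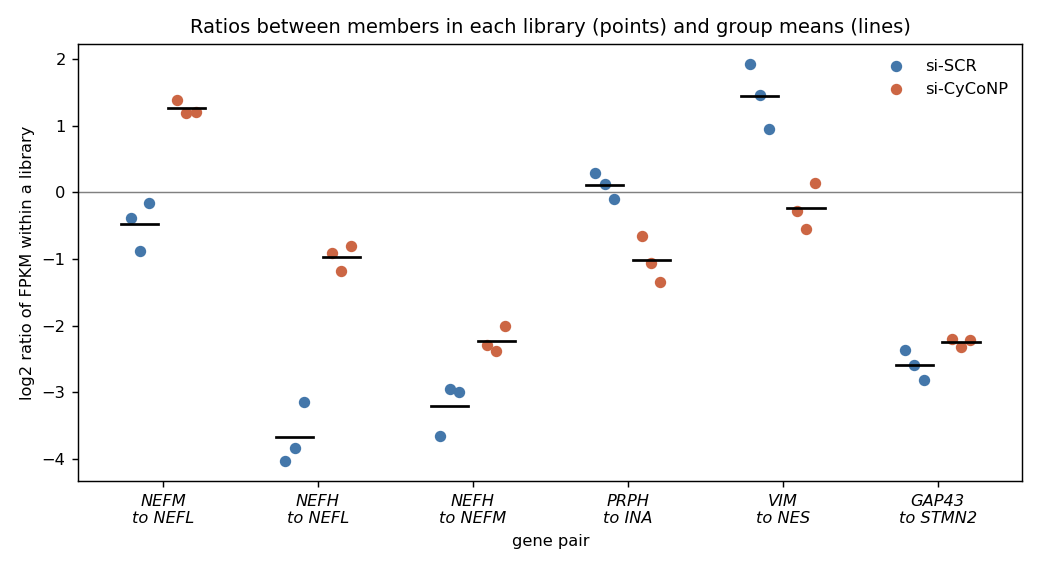
Log2 ratio of the FPKM of 2 genes within a library (vertical axis) for 6 gene pairs, with a point per library in blue (si-SCR) and orange (si-CyCoNP) and a line at each mean of 3. The groups are apart for every pair, most for NEFH to NEFL, where the means are -3.68 and -0.97.

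The study examined hsa-miR-4492 as a partner of CyCoNP, so the transcripts of the 10 genes were searched for a match to its seed. The mature sequence (RefSeq, GRCh38.p14, chr11:118910765-118910781, plus strand) is shown with the seed, bases 2 to 8, in capitals, above the only match in a 3′ UTR and the only match in a coding region among the 10 genes. Both lie in NES, on the minus strand of chromosome 1, at chr1:156668941-156668947 and chr1:156670520-156670526. Capitals mark CCAGCCC, the letters that pair with the seed.
hsa-miR-4492: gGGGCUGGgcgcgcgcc
NES 3′ UTR: cccaagctcaCCAGCCCtgcgccacct
NES coding: ctggtctcccCCAGCCCaacgtacacc
NES, the gene that holds both, was among those that rose. PRPH held 1 match, in its 5′ UTR, and the other 8 genes held none, STMN4 among them. Over 10511 tested protein-coding genes, 23.3% had this match in the 3′ UTR, with 27.0% of the 378 called lower and 32.8% of the 235 called higher, whose 3′ UTRs had a median length of 1563 and 1540 bases against 1389 for all. In the coding region the match was held by 28.8% of all these genes, 34.1% of those called lower and 36.2% of those called higher. No such share was formed for the 5′ UTR. A match is a description of letters, and binding was not measured here.

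Promoters could be read from RefSeq for 5 of the 10 genes, INA, PRPH, VIM, NES and GAP43. The 250 bases before the start are shown for a pair of genes called in opposite directions, PRPH (GRCh38.p14, chr12:49294897-49295146, plus strand) and NES (chr1:156677408-156677657, minus strand). Capitals mark the TATA box letters TATAAA, the GC box letters CCGCCC or, on the other strand, GGGCGG, and the E box letters CAGCTG. The GC box and the E box were searched on both strands, and TATAAA only in the direction printed.
PRPH: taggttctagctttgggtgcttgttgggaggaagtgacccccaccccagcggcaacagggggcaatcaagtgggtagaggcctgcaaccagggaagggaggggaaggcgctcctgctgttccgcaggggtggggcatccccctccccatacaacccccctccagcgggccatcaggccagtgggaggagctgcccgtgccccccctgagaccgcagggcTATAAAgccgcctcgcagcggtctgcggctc
NES: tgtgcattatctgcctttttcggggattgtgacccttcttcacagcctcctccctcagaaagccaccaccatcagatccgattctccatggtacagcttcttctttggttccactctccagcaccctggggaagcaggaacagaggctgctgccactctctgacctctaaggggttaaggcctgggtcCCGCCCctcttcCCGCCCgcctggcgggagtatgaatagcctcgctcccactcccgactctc
PRPH held TATAAA, starting at -31, and no GC box, whereas NES held 2 GC boxes and no TATAAA. Of the others, INA held 4 GC boxes and 1 E box, VIM held 1 GC box and GAP43 held none of these motifs. Among 35116 RefSeq promoters, 6.80% held TATAAA, 42.6% a GC box and 14.0% the E box. No motif was shared by INA, PRPH and VIM, the 3 genes among these that fell.

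The genes around the 10 were then read by list. Of 12 other intermediate filament genes 6 were tested, of which 2 passed as higher, 1 as lower and 3 did not pass, beside 14.2% of all tested genes in each direction, with a median log2 fold change of 0.24. SYNM, synemin, which co-assembles with vimentin, rose from 6.83 ± 1.09 to 13.5 ± 0.646 FPKM (SD, n = 3), a fitted log2 change of 0.91 (edgeR adjusted p = 2.12e-07). Of the nuclear lamins, LMNB2 rose by 0.66 on the log2 scale (edgeR adjusted p = 4.35e-05), while LMNA fell by 0.35 (edgeR adjusted p = 0.0014). The median of this list was 0.37 without the third si-SCR library and 0.41 with no filter on low values.

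All 17 genes that link, carry, phosphorylate or degrade filaments were tested. Of these, 1 passed as higher, 7 as lower and 9 did not pass, beside 14.2% of all tested genes in each direction, and the median log2 fold change was -0.22. KIF5B, a heavy chain of the conventional kinesin motor, fell from 71.2 ± 1.92 to 36.0 ± 0.483 FPKM (SD, n = 3) and was the only one called, at -1.05 (edgeR adjusted p = 6.83e-11). Its neuronal relative KIF5C had a fitted log2 change of -0.98 (edgeR adjusted p = 5.76e-08). CDK5R2, an activator of the neurofilament kinase CDK5, had -0.70 (edgeR adjusted p = 3.61e-06).

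Of 23 other stathmin and growth cone genes 19 were tested, of which 2 passed as higher, 10 as lower and 7 did not pass, beside the same 14.2% each way, with a median of -0.28. GPM6B, a membrane protein of the proteolipid family, was the only one called. It fell from 31.2 ± 4.21 to 7.58 ± 1.53 FPKM (SD, n = 3), a fitted log2 change of -2.10 (edgeR adjusted p = 1.07e-12). DPYSL3, a collapsin response mediator, had -0.64 (edgeR adjusted p = 2.95e-07) and MARCKS, an actin regulator of the same membrane compartment as GAP43, had -0.57 (edgeR adjusted p = 6.62e-06). The third gene of this kind was STMN1, with the value given above.

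Of 17 RNA-binding proteins and transcription factors known to act on filament or stathmin transcripts 14 were tested, of which 1 passed as higher, 5 as lower and 8 did not pass, beside the same 14.2% each way, with a median of -0.13. ARHGEF28, whose product binds the NEFL mRNA, was at 8.07, 6.93 and 4.39 FPKM in si-SCR, against 1.79, 1.36 and 1.10 FPKM after depletion. It fell by 2.25 on the log2 scale (SE 0.181, edgeR adjusted p = 3.24e-10). JUN, a transcription factor of axon regrowth, fell from 22.8 ± 1.20 to 11.1 ± 0.322 FPKM (SD, n = 3), by 1.10 on the log2 scale (edgeR adjusted p = 1.63e-08). Smaller decreases were found for RCOR1, a corepressor partner of REST, at -0.70 (edgeR adjusted p = 1.36e-06), for ELAVL4, a neuronal RNA stabiliser known to bind the GAP43 mRNA, at -0.62 (edgeR adjusted p = 2.51e-05), and for ATF3 at -0.69 (edgeR adjusted p = 0.00169). TARDBP, whose protein acts on splicing of STMN2, had 0.21 (edgeR adjusted p = 0.167) and REST had -0.09 (edgeR adjusted p = 0.792), and neither passed. Without the third si-SCR library 10 genes of this list passed in place of 6.

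**Figure D5:**
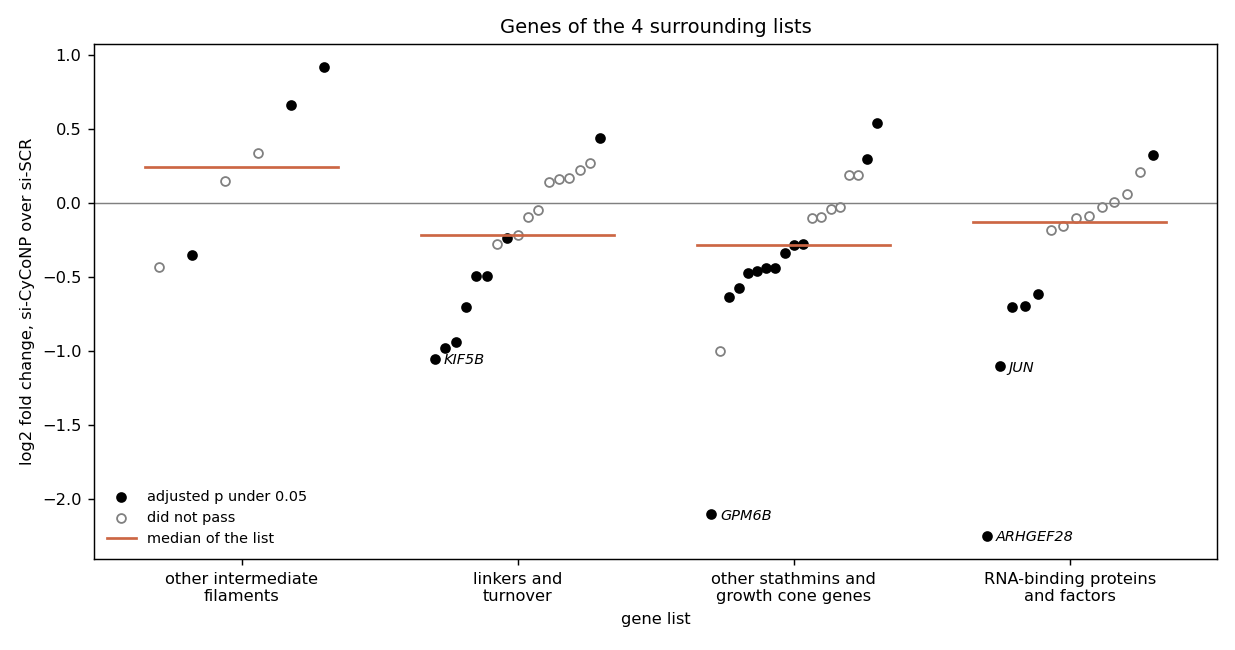
Log2 fold change of si-CyCoNP over si-SCR (vertical axis) for the tested genes of 4 lists around the 10 genes, each ordered by value. Filled points passed at an adjusted p under 0.05, open points did not, and orange lines mark the list medians, which are 0.24, -0.22, -0.28 and -0.13 from left to right. GPM6B and ARHGEF28 lie lowest.

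Markers of the labelled line and of other cell types were read beside these results. Of 10 genes of the adrenergic neuronal state of neuroblastoma, STMN2 included, all were expressed and 8 passed as lower in si-CyCoNP, beside 14.2% of all tested genes. Their summed level was 2407 to 2880 FPKM in the controls, against 1512 to 1618 FPKM after depletion. This list fell together with NEFL, INA, PRPH, VIM, STMN1 and STMN4, while NEFM, NEFH and NES rose. The part of this list in those changes was not tested. Of 10 mesenchymal genes, 3 passed as higher and 3 as lower, beside 14.2% of all tested genes each way, and their summed level was 90.6 to 112 FPKM in the controls, against 87.0 to 92.4 FPKM after depletion. PRRX1 was at 0 in every library and YAP1 below 1 FPKM. Of the Schwann cell genes, SOX10, CDH19 and FOXD3 were at 0 in every library, and S100B and ERBB3 were below 1 FPKM. Astrocyte genes summed to at most 0.498 FPKM and muscle genes to at most 2.14 FPKM, with GFAP and DES each below 1 FPKM in every library.

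Genes with the most similar profile were named for the 4 called genes, by Pearson correlation of log2 CPM over the 6 libraries among 9514 tested genes with a mean of at least 10 CPM. With only 6 libraries in 2 separate groups, any gene that differs between the groups correlates strongly, so these values are a description only. The nearest to NEFH were PPP5C (r = 0.998) and GOLGA3 (r = 0.997), to NES RNF144A (r = 1.00) and FAM53B (r = 0.999), to PRPH DLD (r = 0.997) and VPS13C (r = 0.996), and to STMN4 CD46 (r = 0.999) and GCH1 (r = 0.999). Between 17 and 44 genes had r over 0.99 with each called gene. Sizes of change differed widely within these pairs, from a log2 fold change of 0.22 for PPP5C to -2.52 for GCH1.

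The 10 genes span a wide range of base composition, from 41.8% GC in STMN2 to 63.4% in PRPH over the main transcript. Of the genes that rose, NEFM had 52.8% GC, NEFH 57.8% and NES 59.3%. Of those that fell, NEFL had 46.9%, INA 50.9%, VIM 54.3% and STMN4 50.1%, besides STMN2 and PRPH at the ends of the range. A part of GC content in the changes of the 10 genes was not tested. Across 13914 tested genes Spearman's rho of the log2 fold change was 0.03 with GC content and -0.02 with transcript length. Exons of 6 of the 10 genes overlap a gene on the opposite strand, and the libraries were made with a stranded protocol. Over all libraries, the opposite-strand gene at INA, NT5C2, held 1116 counts and the antisense gene at NEFM held 354. None of the 10 shares exons with a gene on its own strand.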

How the data were processed

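The authors used a stranded, paired-end protocol on total RNA after ribosomal RNA depletion. Per the labels, the submitters' processing notes name Trimmomatic 0.39, cutadapt 3.2, Bowtie2 2.4.2, STAR 2.7.7a and the GRCh38 build. The deposited count table holds raw counts per Ensembl gene, and the deposited FPKM table was made by the authors from the same counts, scaled by gene length and library total. Fragments mapping to several places were not counted, per the study's methods, and PCR duplicates stay in, so intervals from counting alone would be too narrow.

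The filter of the study was used, a group mean of 1 FPKM or more in at least one of the groups. The main comparison was the TMM-scaled quasi-likelihood fit of edgeR 4.0.16 (R 4.3.3), all 6 libraries, no covariates, with Benjamini-Hochberg adjustment over 13966 genes. The thresholds are an adjusted p of 0.05 and, for a call, a log2 fold change of 1. DESeq2 1.42.0, of which the study used an earlier version, and limma 3.58.1 on log2(FPKM + 1) and log2(FPKM + 0.1) were alternatives. Further alternatives were other scalings and filters, a replicate block, glmTreat, and leaving out each library. Shares and ratios were compared by exact permutation. The fits were tested on simulated data. The 10 genes, the lists and the alternatives were chosen with earlier results of these data known. Besides these 10, LINC02381, NCAM1, STMN1 and STMN3, the rule named every called list gene, up to 3 further list genes with the smallest adjusted p under 0.05, and the 2 genes most correlated with each called gene. TARDBP, REST, the marker genes at or near 0 and the neighbouring genes fall outside it. The values of some listed genes are not reported here. Sites and transcripts were read from GENCODE 44 on GRCh38.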

Additional observations from a re-analysis of the deposited data

How the results depend on the processing

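The 9 genes that passed kept their direction and stayed under an adjusted p of 0.05 in all 15 alternatives of the fit (adjusted p at most 0.043, for STMN2). GAP43 passed in none, and its log2 fold change changed sign, to 0.027 with library totals alone, 0.036 with limma on log2(FPKM + 1), 0.037 on log2(FPKM + 0.1), and to values between -0.21 and 0.070 when single libraries were left out. Library totals alone moved log2 fold changes up by a median of 0.067. NEFM was called as well with library totals alone, the replicate block, both limma scales, and without the third si-SCR or the third si-CyCoNP library, so 3 of the 10 genes were then called higher. Against a log2 fold change of 1 (glmTreat), 1 was called higher, with 45 of all genes higher and 88 lower. Limma on log2(FPKM + 1) called 207 and 180, against 319 and 416, and passed 7 other stathmin and growth cone genes in place of 12, and the cause was not tested. Counts of all genes called without single libraries ran from 295 to 400 higher and from 359 to 507 lower. The median of the other intermediate filaments was 0.40 with the default filter of edgeR and 0.41 with none, where other genes enter, and 0.18 to 0.37 without single libraries. Of the RNA-binding proteins and factors, 5 to 10 passed without single libraries. With counts not divided by length the shares of INA, PRPH, VIM and NES changed by -4.45, -9.63, -5.40 and 10.0 percentage points. With the length of the main transcript, an alternative added after the data had been seen, those of NEFL, NEFH and INA changed by -7.12, 4.71 and -2.80. These moves follow from the lengths themselves.

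Deviations of log2 CPM from the mean of the group were correlated between libraries of the 2 groups. Same-numbered libraries gave correlations of 0.0907, 0.0727 and 0.108. By this measure each library correlated best with its own number, which is a hint and not a pairing known from the design. With the replicate block 330 genes were called higher and 422 lower, and NEFM had a log2 fold change of 1.00. Depth limited STMN4 most, with 6 to 9 counts in each si-CyCoNP library.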
